A study of Rattus norvegicus with 12 samples.

Results

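The miR-99, miR-100 and miR-125 family was examined in rat soleus through its 5 main mature strands on the array, rno-miR-99a, rno-miR-99b, rno-miR-100, rno-miR-125a-5p and rno-miR-125b-5p, where rno stands for the rat. These were chosen by name among the 677 rat miRNAs on the array, without the opposite strands of their hairpins, and all 5 were detected in all 12 rats. The soleus, a hind limb muscle rich in slow fibres, came from male Sprague-Dawley offspring at the age of 1 year. Dams of the control group ate chow, and dams of the high fat group a diet rich in saturated fat and sucrose from before mating until the end of lactation. Offspring of both groups, called control and HF offspring here, were weaned onto chow, so the diet compared is that of the dam. Each group had 6 rats with 1 array each, on 2 slides that held 3 rats of each group. The litters of the rats are not given in the sources used here, and rats of 1 dam may be more alike than the tests assume.

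MicroRNAs are short RNAs that guide Argonaute proteins to messenger RNAs, mostly through the seed at bases 2 to 8. miR-99 and miR-100 share a seed and are known to repress Mtor, the kinase that couples nutrients to growth. miR-125a and miR-125b are the vertebrate relatives of lin-4, the first miRNA described, and miR-125b is known as a brake on myoblast differentiation through Igf2. The genes lie in clusters that join a miR-99 or miR-100 gene, a let-7 gene and a miR-125 gene. In the RefSeq annotation of GRCr8, Mir99a was followed by Mirlet7c1, and the next miRNA genes included Mir125b2, all overlapping LOC103693508. Mir100, Mirlet7a-2 and Mir125b1 overlapped Mir100hgl and Lnc215, and Mir99b, Mirlet7e and Mir125a overlapped Spaca6, named for a sperm protein. miR-125b-5p can thus come from either of the first 2 clusters, and the array gave 1 signal for both genes.

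The mature sequences show which members are related, and RefSeq held them for 4 of the 5, on the GRCr8 build. Each is written 5′ to 3′ with the seed in capitals.
miR-99b: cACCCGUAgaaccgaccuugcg
miR-100: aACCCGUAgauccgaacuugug
miR-125a-5p: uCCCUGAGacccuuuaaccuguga
miR-125b-5p: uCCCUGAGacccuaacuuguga
miR-99b was located at chr1:67350070-67350091 and miR-125a-5p at chr1:67350689-67350712, both on the plus strand and in the miR-99b cluster. miR-100 was located at chr8:50798307-50798328, and miR-125b-5p of Mir125b2 at chr11:29732588-29732609, both on the plus strand. miR-99b and miR-100 differed at 4 of 22 positions, and miR-125a-5p and miR-125b-5p shared their first 13 bases. The seed ACCCGUA was found in 2 of the 693 mature names in that annotation, those of miR-99b and miR-100. The seed CCCUGAG was found in 3 of the 693, those of miR-125a-5p, miR-125b-5p and miR-351.

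The let-7 partners of the clusters have a seed of their own, and their sequences are shown because let-7e and let-7c were among the miRNAs most like miR-125a-5p over the rats.
let-7c: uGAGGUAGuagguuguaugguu
let-7e: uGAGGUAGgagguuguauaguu
let-7a: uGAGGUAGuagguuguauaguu
These 3 differ by few bases, and how far their probes also bind each other's RNA was not tested. The same let-7c sequence also comes from Mirlet7c2 on chr7, and the same let-7a sequence from Mirlet7a1 on chr17. The signals of let-7c and let-7a can thus also come from outside the clusters. miR-351, the third miRNA with the miR-125 seed, was detected on 0 of the 12 arrays.

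The deposited values are signal intensities, which were scaled on each array to the 75th percentile of 162 miRNAs, those detected in all rats, and kept in signal units. That percentile ran from 864 to 1911 signal units, and between 177 and 220 miRNAs were detected per array. Probes differ in brightness, so the levels of different miRNAs were not set against each other. Muscle miRNAs were detected in all rats, and the 2 neuron and 4 epithelium markers summed to at most 7.77 and 21.0 signal units in any rat. The liver marker miR-122 was detected on 10 arrays, at up to 406 signal units in control and 302 in HF offspring. Where its signal came from was not tested. High fat rat H3 stood apart, with 366 signal units for the slow fibre markers against 4588 or more in every other rat and 2004 for miR-126 of endothelium against 3951 or more. Its miR-206, a muscle miRNA abundant in slow muscle, stood at 9354 against 34466 or more in control offspring. H3 is titled as skeletal muscle of the high fat group, and the methods name soleus for all animals. Markers of the slow fibres that soleus is rich in were almost absent from H3. Whether it holds the same tissue as the others was not tested. The diet differences and the main correlations are therefore also given without H3.

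All 5 miRNAs had a lower mean in HF offspring, by between 0.17 and 0.36 on the log2 scale, but none passed the test and the groups overlapped in each. Over 193 tested miRNAs, those detected on 6 or more arrays, limma with Benjamini-Hochberg adjustment gave an adjusted p under 0.05 for 0 of the 5, against 0% of all tested. At an unadjusted p under 0.05 it also gave 0 of the 5, against 1.04% of all tested, or 2 of 193. A lower mean was common to most miRNAs at this scaling, with 79.8% of all tested lower in HF offspring and a median of -0.17 over all. The median over the 5 miRNAs was -0.21, and their distances from the median of all ran from -0.0021 for miR-100 to -0.19 for miR-125b-5p. In whole muscle, a lower signal from fewer cells of a type and from less RNA per cell cannot be told apart.

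rno-miR-125b-5p, the miR-125 member encoded by 2 genes, had the largest of the 5 differences. Its scaled signal had a lowest, median and highest value of 4261, 5620 and 7271 in control offspring and of 3244, 3783 and 6271 in HF offspring. A89, C73 and A110 were the high control rats, while among HF offspring C25 and H1 were high and the other 4 rats lay together below every control rat. The mean was lower by 0.36 on the log2 scale (SE 0.20, 95% CI -0.79 to 0.075), with an adjusted p of 0.685 from limma. The exact two-sided permutation test over rats gave p = 0.102, and the slides gave differences of -0.36 and -0.35. Its unadjusted limma p fell below 0.05 without H1, without C25 or with array weights, the lowest being 0.0323, while the lowest adjusted p over its 39 alternatives was 0.422.

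rno-miR-125a-5p carries the same seed and comes from the miR-99b cluster. It ran from 224 through a median of 308 to 339 signal units in control offspring and from 187 through 244 to 312 in HF offspring. A75 was the low control rat, and 5 of the 6 high fat rats lay below the control median. The difference was -0.26 (SE 0.17, 95% CI -0.62 to 0.095, adjusted p of 0.685 from limma) and the exact two-sided permutation test gave p = 0.115. It was -0.36 on the first slide, which held H3, and -0.16 on the second.

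rno-miR-99a, whose gene leads the miR-99a, let-7c and miR-125b-2 cluster, was the least variable of the 5 between rats. It ran from 2364 through a median of 2589 to 3004 signal units in control offspring and from 1762 through 2209 to 3016 in HF offspring. The highest rat of all was H1 and the lowest was A37, both of the high fat group, whose range took in that of the control rats. The difference was -0.21 (SE 0.15, 95% CI -0.53 to 0.11, adjusted p of 0.685 from limma), with an exact two-sided permutation p of 0.134.

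rno-miR-99b, of the miR-99b and miR-125a cluster, had a median listed error of 9.68% of its signal, the highest of the 5. It ran from 64.6 through a median of 73.2 to 91.9 signal units in control offspring and from 48.4 through 63.6 to 88.7 in HF offspring. H3 was lowest and A89, a control rat, highest. The difference was -0.21 (SE 0.17, 95% CI -0.57 to 0.15, adjusted p of 0.685 from limma), with an exact two-sided permutation p of 0.193.

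rno-miR-100, which shares the miR-99 seed, differed least. It ran from 361 through a median of 425 to 580 signal units in control offspring and from 324 through 381 to 522 in HF offspring. A89 was again highest and H3 lowest, with C51, A37 and C60 next above it. The difference was -0.17 (SE 0.16, 95% CI -0.52 to 0.18, adjusted p of 0.700 from limma), with an exact two-sided permutation p of 0.277.

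**Figure D1:**
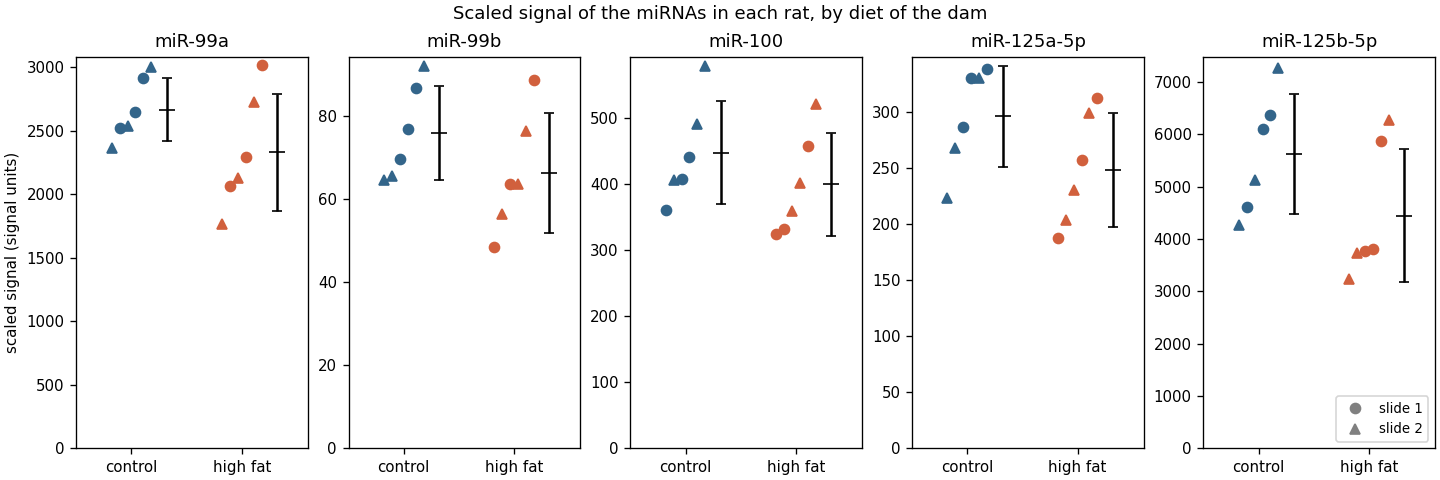
Scaled signal (signal units, linear axis from 0) of each miRNA in each rat, by diet of the dam, with circles for the first slide, triangles for the second and black bars for the mean ± SD of 6 rats. The groups overlap in all 5 panels, and 4 high fat rats lie below every control rat for miR-125b-5p.

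Leaving out single rats kept all 5 differences below 0 but moved their size. Without H3, on the scaled values given above, the differences were -0.21 for miR-99a, -0.13 for miR-99b, -0.11 for miR-100, -0.19 for miR-125a-5p and -0.32 for miR-125b-5p, and the median of all tested was -0.12. When the 11 remaining arrays were scaled anew, the same 5 differences were -0.13, -0.045, -0.032, -0.11 and -0.24, and the median of all tested was -0.034, with 121 of 191 lower. The second set of values thus holds a change of scaling as well as the loss of H3. With each rat left out in turn and the scaling kept, miR-99a ran from -0.29 without H1 to -0.13 without A37, and miR-99b from -0.30 without H1 to -0.13 without H3. miR-100 ran from -0.25 without C25 to -0.092 without A89, and miR-125a-5p from -0.34 without A75 to -0.19 without H3. miR-125b-5p ran from -0.47 without C25 to -0.28 without A37.

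The direction of these differences also depended on how the arrays were scaled. Without scaling, 4 of the 5 were higher in HF offspring and miR-125b-5p alone had a lower mean, by 0.050, when the median of all tested miRNAs was 0.14 and 20.7% of them were lower. After quantile normalization miR-99a was higher by 0.050 and the other 4 were lower. In every one of these scalings miR-125b-5p was lower and lay below the median of all tested miRNAs. The let-7 partners moved in the same range, with differences of -0.28 for let-7c, -0.22 for let-7a and -0.25 for let-7e, each with an adjusted p of 0.685 from limma.

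**Figure D2:**
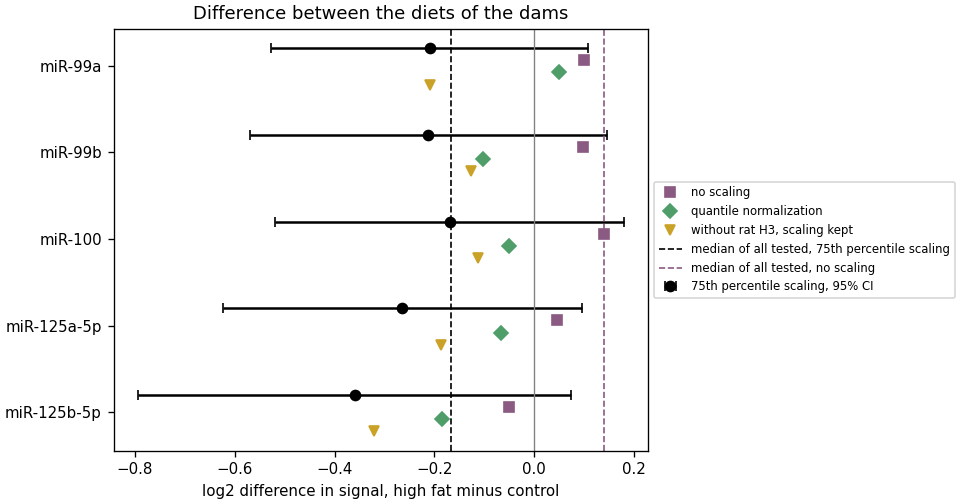
Log2 difference in signal (high fat minus control) of each miRNA, as the limma estimate with its 95% CI at the 75th percentile scaling and as estimates without scaling, after quantile normalization and without rat H3 at the scaling kept from all arrays, with dashed lines at the medians of all tested miRNAs. Every interval spans 0, and the estimates of 4 miRNAs are above 0 without scaling.

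Ratios between 2 miRNAs of 1 array do not depend on its scaling, and they addressed whether the members changed unequally with the dam's diet. Of the 10 ratios among the 5 miRNAs, 0 passed the exact two-sided permutation test, and the smallest adjusted p over the 10 was 0.801. The ratio of miR-100 to miR-125b-5p, which can come from the same cluster, had the smallest p. Its log2 value was -3.64 ± 0.22 (SD, n = 6) in the control group and -3.45 ± 0.21 (SD, n = 6) among HF offspring, with p = 0.156 in the exact permutation test and p = 0.070 within slides. The difference was 0.19, with slide values of 0.23 and 0.15, and the groups overlapped. The ratio of miR-99a to miR-125b-5p was higher by 0.15 (exact permutation p = 0.160). The ratio of miR-99a to miR-99b differed by 0.0022 between the groups (exact permutation p = 0.983) and turned to -0.082 without H3.

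**Figure D3:**
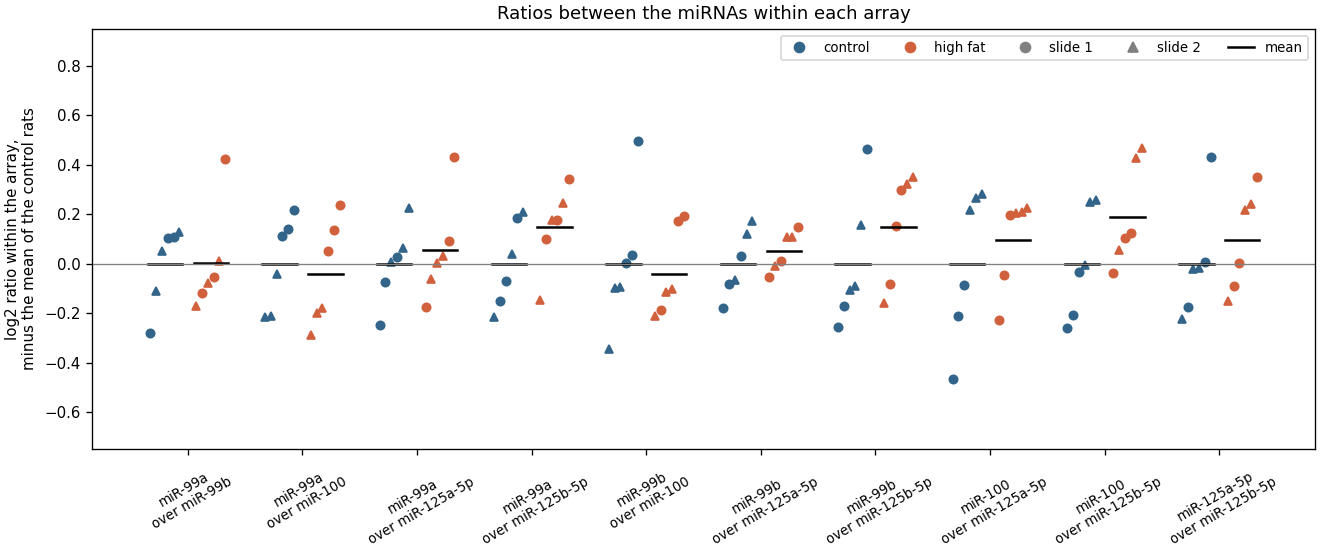
Log2 ratio of each pair of miRNAs within an array, minus the mean of the control rats, by diet of the dam (colour) and slide (symbol), with black lines at the group means. The groups overlap in all 10 ratios, and the mean shift is at most 0.19.

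Over the 12 rats the 5 miRNAs varied together. By scaled signal A89, a control rat, ranked first or second of 12 for all 5, and A37, a high fat rat, ranked between 10 and 12 for all 5. The low rank of A37 came with the scaling, as its array had the highest 75th percentile, 1911. Before scaling A37 stood at 2486 for miR-99a, 79.3 for miR-99b, 507 for miR-100, 287 for miR-125a-5p and 4577 for miR-125b-5p. The medians over all rats were then 2418, 68.4, 411, 267 and 4667. Among the 5 miRNAs and their 3 let-7 partners, Pearson's r ran from 0.58 to 0.97 over 28 pairs, and all 28 had an adjusted permutation p under 0.05 by Pearson's r and by Spearman's rho. The share of other miRNA pairs that would pass is not given here, so the count is not shown to be particular to these miRNAs. The common scaling of an array enters both members of a pair. After quantile normalization r ran from -0.087 to 0.88, with a median of 0.46 against 0.80 before. Without H3 it ran from 0.47 to 0.98, with a median of 0.81, and the lowest value among the 5 members was 0.48 for miR-100 with miR-125a-5p, which stood at 0.60 with all rats.

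By r over all 12 rats, the 2 closest pairs of members came each from 1 cluster. miR-99a and miR-125b-5p had r = 0.94 and rho = 0.91 (permutation test, adjusted p = 0.000187 and 0.00084, n = 12), with r = 0.90 and 0.97 within the slides and 0.93 without the 2 rats farthest from the median. miR-99b and miR-125a-5p had r = 0.93 and rho = 0.92 (permutation test, adjusted p = 0.00021 and 0.00028, n = 12), with 0.94 on both slides and 0.89 without the 2 farthest rats. miR-100 and miR-125b-5p had r = 0.82 and rho = 0.83 (permutation test, adjusted p = 0.00252 and 0.00296, n = 12), with 0.95 and 0.99 within the slides and 0.70 without the 2 farthest. After quantile normalization these 3 pairs stood at 0.69, 0.58 and 0.74, and without H3 at 0.95, 0.89 and 0.80. Seed relatives from different clusters stood at 0.83 for miR-125a-5p with miR-125b-5p, 0.76 for miR-99a with miR-99b, 0.71 for miR-99a with miR-100 and 0.65 for miR-99b with miR-100, the last at 0.35 without the 2 farthest rats. After quantile normalization they stood at 0.38, -0.032, 0.34 and 0.11, and without H3 at 0.84, 0.85, 0.73 and 0.54. Within the first and second slide they stood at 0.73 and 0.98, 0.67 and 0.91, 0.95 and 0.95, and 0.71 and 0.92. After the mean of each diet group on each slide was subtracted, miR-100 with miR-125b-5p stood at 0.98. miR-99a with miR-100, of different clusters, then stood at 0.95, and the 2 closest pairs named above at 0.94 each.

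Over all 28 pairs, the 9 pairs within a cluster had a median r of 0.82 and the 19 others one of 0.79. Pairs of a member with let-7c or let-7a of its cluster are among the 9, though both can also come from genes outside the clusters. After quantile normalization the medians were 0.63 and 0.33, the lowest value within a cluster being 0.50. The difference between the 2 kinds of pair was not tested, since pairs that share a miRNA are not independent. With all 192 other tested miRNAs, the median r of each member lay between 0.35 and 0.41, and between -0.11 and 0.11 after quantile normalization.

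**Figure D4:**
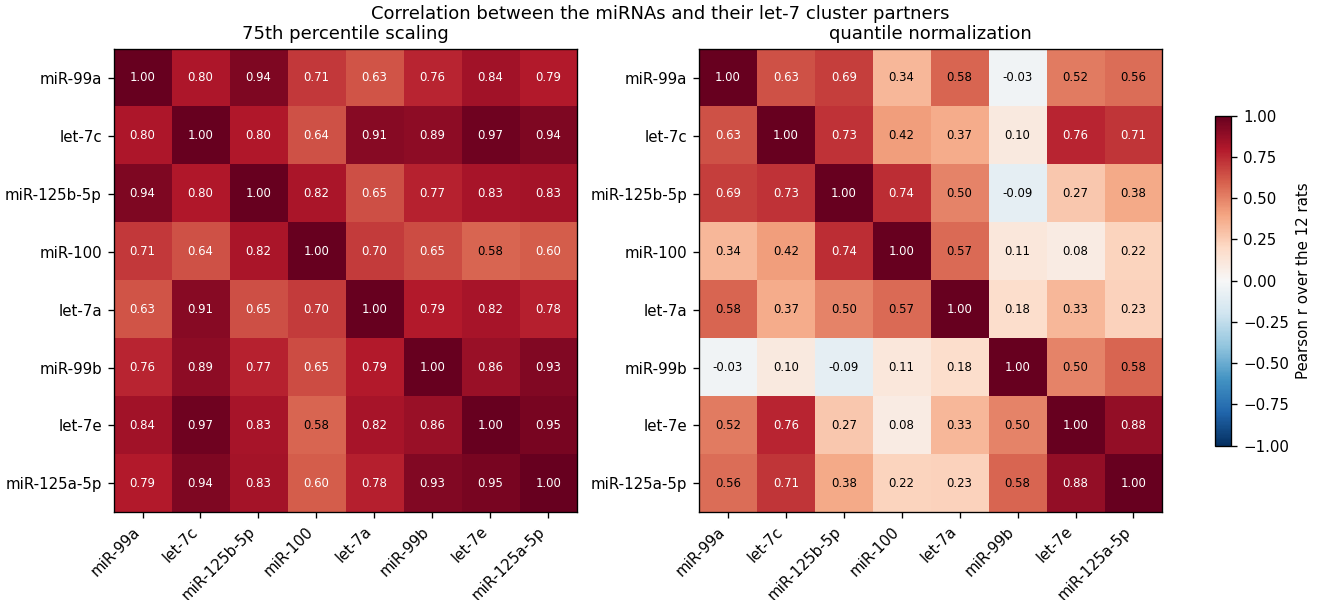
Pearson's r over the 12 rats between the 5 miRNAs and let-7c, let-7a and let-7e, ordered by cluster, at the 75th percentile scaling and after quantile normalization. All values are above 0 at the first, and after the second miR-99b stands near 0 with miR-99a and miR-125b-5p while miR-125a-5p keeps 0.88 with let-7e.

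The SD of a within-array log2 ratio over the rats measures how tightly a pair runs together without any scaling. The ratio of miR-99b to miR-125a-5p had an SD of 0.108, the smallest of 161 for both miRNAs with all rats and without H3. This SD was below the 0.182 that the listed errors of the signals, taken as independent, would give. The same held for miR-125b-5p to miR-130a, at 0.110 against 0.164, but not for miR-99a to miR-125b-5p, at 0.181 against 0.167. The listed errors thus could not serve to tell spread between rats from measurement error. For miR-125a-5p the next ratios were those to let-7e of its own cluster, at 0.117, and to let-7c of another, at 0.119. The ratio of miR-99a to miR-125b-5p had an SD of 0.181 and ranked 12 of 161 for miR-99a and 4 of 161 for miR-125b-5p. miR-100 ran less tightly over both slides, with SDs of 0.226 to miR-125b-5p and 0.202 to let-7a, its cluster partners. These SDs include any shift between the slides. The log2 ratio of miR-99a to miR-100 ran from 2.64 to 2.82 on the first slide and from 2.30 to 2.54 on the second. Outside the clusters, smaller SDs were those of miR-125b-5p to miR-130a, at 0.110, of miR-99a to miR-16, at 0.113, and of miR-100 to miR-98, at 0.170. The medians over all 161 ratios of a member lay between 0.34 and 0.43.

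Each member's own most similar miRNAs, by r over the 12 rats among 192, differed in kind. miR-125b-5p was most like miR-199a-3p (r = 0.96), miR-130a (0.96) and miR-99a (0.94). miR-99a was most like miR-125b-5p (0.94), miR-130a (0.93) and let-7i (0.90). miR-125a-5p stood beside let-7 miRNAs, namely let-7e (0.95), let-7b (0.94) and let-7c (0.94).

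miR-99b was most like miR-652 (0.95), miR-125a-5p (0.93) and miR-342-3p (0.91). miR-100 was most like miR-374 (0.92), miR-146a (0.85) and miR-152 (0.84). These values are descriptions, as each was among the 3 highest of 192. After quantile normalization they ran from 0.54 for miR-100 with miR-374 to 0.92 for miR-125b-5p with miR-130a. The ratio of miR-100 to miR-374 had an SD of 0.340 and ranked 66 of 161.

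miR-199a-3p, miR-199a-5p and miR-214 are known markers of fibroblasts and other mesenchymal cells, and they moved with the members. Of the 15 correlations between the 5 miRNAs and these 3 markers, 14 had an adjusted permutation p under 0.05 over the 85 pairs with cell type markers, the exception being miR-100 with miR-214 at r = 0.62. The 15 pairs share miRNAs and are not independent, so they do not count as separate results. Of the 70 pairs with muscle, slow fibre, endothelium, smooth muscle, red cell and leukocyte markers, 0 had one, with 4 at an unadjusted p under 0.05 by Pearson's r and 0 by Spearman's rho. miR-125b-5p and miR-199a-3p had r = 0.96 and rho = 0.92 (permutation test, adjusted p = 0.00128 for r, n = 12), with 0.98 and 0.96 within the slides, 0.97 without H3 and 0.81 after quantile normalization. This r was also the highest of 192 for miR-125b-5p. The marker correlations were chosen after the values were seen, so their p-values are descriptions. The 15 values ran from 0.62 to 0.96, and from 0.11 to 0.87 after quantile normalization. By the SD of the within-array log2 ratio most of these pairs ran loosely. For miR-199a-3p it ran from 0.261 with miR-125b-5p, ranked 19 of 161, to 0.419 with miR-99a, ranked 117. For miR-214 it ran from 0.42 with miR-125b-5p, ranked 75, to 0.626 with miR-100, ranked 151.

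The contrast between cell types depended on the scaling and on H3. With the 75th percentile taken over all 677 miRNAs, the 15 fibroblast values ran from 0.019 to 0.84 with a median of 0.45. The medians then were 0.81 for smooth muscle, 0.80 for endothelium, 0.71 for slow fibre and 0.56 for muscle markers, all above the fibroblast one. Without scaling, smooth muscle values reached 0.82 and leukocyte values 0.83. Without H3, the 10 red cell values ran from 0.45 to 0.80, and with all rats from 0.78 to 0.98 on the second slide and from -0.86 to 0.22 on the first, which held H3, while the fibroblast values without H3 ran from 0.58 to 0.97. The members were thus not shown to move with fibroblast markers alone.

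The 3 markers summed to between 2755 and 7094 signal units in control offspring and between 2342 and 7391 in HF offspring. They differed between the diets by -0.45, -0.51 and -0.55, each with an adjusted p of 0.685 from limma. Their part in the differences of the 5 miRNAs was not tested.

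**Figure D5:**
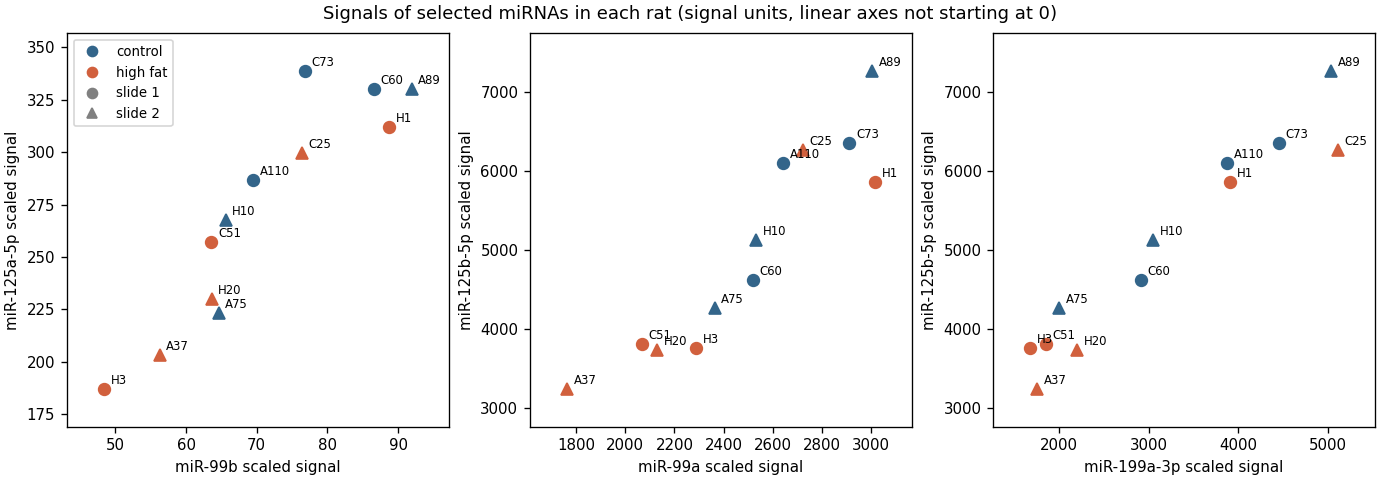
Scaled signal (signal units, linear axes that do not start at 0) of miR-125a-5p against miR-99b, of miR-125b-5p against miR-99a, and of miR-125b-5p against miR-199a-3p, with 1 labelled point per rat, coloured by diet of the dam. The points of both groups follow 1 common band in each panel, with r = 0.93, 0.94 and 0.96 on the log2 scale.

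The opposite strands of the hairpins, which usually are degraded, were detected unevenly. miR-99a* and miR-125a-3p were detected in all 12 rats and miR-125b* in 7, of which 3 were control and 4 high fat rats. miR-99b*, miR-100* and miR-125b-3p were detected in 0 of the 12.

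miR-99a* followed its partner miR-99a, with r = 0.84 and rho = 0.76 (permutation test, adjusted p = 0.00122 and 0.0118 over 2 pairs, n = 12) and a ratio that varied 1.38-fold over the rats. After quantile normalization its r was 0.28. miR-125a-3p (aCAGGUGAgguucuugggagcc) did not, with r = -0.062 and rho = -0.014 against miR-125a-5p (permutation test, adjusted p = 0.848 and 0.974, n = 12), and with slide values of r of -0.59 and 0.70. The ratio of its 2 strands varied 15.5-fold, between C60 and H3. In C60 miR-125a-3p lay near the floor of 5.17, with a listed error of 31.0% of its signal. Without H3 the r of the 2 strands was 0.20. miR-125a-3p ran from 6.52 through a median of 23.2 to 39.5 signal units in control offspring and from 10.2 through 34.7 to 57.3 in HF offspring. It was lowest in C60 and highest in H3, and the groups overlapped. Its difference was 0.60 (SE 0.49, adjusted p of 0.685 from limma), with slide values of 1.14 and 0.048. miR-99a* differed by -0.23 (SE 0.16, adjusted p of 0.685 from limma), and miR-125b* by 0.040 with 5 rats at the floor of 5.17.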

How the data were processed

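Soleus RNA of 12 rats (6 control, 6 high fat, from the sample labels) had been hybridised to 1-colour Agilent rat miRNA arrays with 100 ng of input. The authors deposited the total signal intensity of each miRNA with its error and detection flag, as the scanner software gave them after background subtraction. No scaling between arrays had been applied, and the deposited value table of the series held the same intensities. Undetected miRNAs are listed at 0.1. The software version is not given in the sources used here.

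Control spots were left out. Each array was scaled to the 75th percentile of the 162 miRNAs that all arrays detected, signals under 5.17 were raised to this floor, and log2 was taken. limma 3.58.1 in R 4.3.3 compared the groups over the 193 miRNAs detected on 6 or more arrays, which was tested on simulated data, and for single miRNAs and ratios by the exact two-sided permutation test over 924 assignments, or 400 within slides. Correlations over rats used 100000 permutations with Benjamini-Hochberg adjustment. Precision is limited by the number of arrays.

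Named miRNAs were the 5 members, their let-7 cluster partners, their opposite strands, miRNAs that share a seed and, for each member, the 3 with the highest r. Cell type markers were listed beside them. Members and lists were chosen with earlier results of these data known. The marker correlations, the ratio SDs, the comparison of strands and the values without H3 were chosen after the values were seen. Alternatives covered the scaling, the floor, the filter on detection, blocks of slide, of slide and row, and of label letter, array weights, trend and robust fits, the methods' t-test, the value table and each rat left out, with the arrays scaled anew or, chosen after the data were seen, with the scaling kept. Gene neighbours and sequences are from RefSeq, GRCr8.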

Additional observations from a re-analysis of the deposited data

Results flagged for a closer look

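Within the arrays, the log2 ratio of miR-99a to miR-99b was 5.565 in high fat rat H3, where the other 5 high fat rats lay between 4.97 and 5.155. H3 was also the rat with 366 signal units for the slow fibre markers. The log2 ratio of miR-125a-5p to miR-125b-5p was -3.806 in control rat C60, where the other 5 control rats lay between -4.461 and -4.231. Both values stood apart from their group by Dixon's test at the 95% level. Of 40 groups of 6 rats examined, 2 had such a rat, and chance gives about 2.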

How the results depend on the processing

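Of the values for the dam's diet, none had an adjusted p under 0.05 under any alternative, by limma or the methods' t-test, and the direction changed with the scaling. Without scaling the log2 difference was 0.10 for miR-99a, 0.10 for miR-99b, 0.14 for miR-100 and 0.045 for miR-125a-5p. Quantile normalization gave 0.050 for miR-99a, and miR-100 stood at 0.0022 when all 677 miRNAs set the 75th percentile and at 0.0078 with the median of those detected on all arrays. miR-125b-5p stayed below 0 in all 39 alternatives, from -0.47 to -0.050. The number with an unadjusted p under 0.05, 2 in the comparison as reported, was 6 after quantile normalization or median scaling, 1 with only miRNAs detected on all arrays, 8 when slide was a block, 5 when slide and row were, 12 under array weights and 1 under trend and robust fits. It ran from 1 without H3 or A37 to 15 without H1 when each rat was left out and the arrays scaled anew. With the scaling kept it ran from 1 without A110 to 15 without H1, with 6 without H10, 4 without A89 and 7 without C25. Leaving out each rat moved the log2 ratio difference from -0.082 to 0.037 for miR-99a over miR-99b, from -0.10 to 0.0093 for miR-99a over miR-100, from -0.022 to 0.10 for miR-99a over miR-125a-5p and from -0.11 to 0.057 for miR-99b over miR-100. After quantile normalization r was -0.032 for miR-99a with miR-99b and -0.087 for miR-99b with miR-125b-5p. The cause of these changes was not tested. With 177 to 220 of 677 miRNAs detected, a 75th percentile over all miRNAs falls among the dimmer detected ones. Under it the median correlation was lower with the fibroblast markers, at 0.45. It was higher with smooth muscle and endothelium markers, at 0.81 and 0.80. The reason for these shifts was not tested. The 6 rats per group limit the precision, and the lower ends of the intervals for the diet differences ran from -0.79 for miR-125b-5p to -0.52 for miR-100. No paired analysis was possible because the rats carry labels of their own that no pair of rats shares.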

Other observations

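miR-125a-3p, the strand opposite miR-125a-5p, was most like other opposite strands over the 12 rats. Among 192 miRNAs its highest r were with miR-511* (0.83, and 0.76 after quantile normalization), miR-150* (0.82 and 0.79) and miR-466b-1* (0.80 and 0.62). These were chosen as the highest of 192 after the values were seen, and no explanation was tested.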
